A study of Homo sapiens with 10 samples.

Results

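The vehicle-only baseline transcriptome of OCI-LY10 is described here from the 5 arrays whose treatment label was DMSO, out of 10 arrays in the series. OCI-LY10, established from a human diffuse large B-cell lymphoma, is used as a cell line of that tumour's activated B-cell (ABC) type. The series set the drug CC-122 at 1 micromolar against its solvent, and the other 5 arrays, all of treated cells, are not compared here. The cells of these 5 arrays carried vehicle only, for 18 hours, in RPMI1640 medium with 10% fetal bovine serum and antibiotics, and were frozen as washed pellets before total RNA was taken. They share a single cell line, so levels stand for that line and not for the lymphoma type. The labels number the arrays 1 to 5 and do not say that they came from separate cultures, so the spread between them may be technical. In such bulk RNA, fewer cells with a transcript and less of it per cell cannot be told apart.

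Diffuse large B-cell lymphoma is divided by expression into a germinal centre B-cell (GCB) type, which resembles B cells that mutate and select their antigen receptors, and the ABC type, which resembles B cells leaving the germinal centre towards plasma cells. The ABC type is known for chronic B-cell receptor and NF-kB signalling and for its dependence on the transcription factors IRF4 and SPIB, whereas BCL6 is the regulator most associated with the germinal centre. Plasma cells replace surface receptor display with secretion of antibody under XBP1 and PRDM1.

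Each array reported an intensity, the brightness of a probe in the scanner's arbitrary units with no normalization, and a detection p-value against negative control probes for 48106 probes with complete values. A probe was called detected where that p-value was below 0.05. Between 18043 and 18552 probes (37.5 to 38.6%) passed on an array, the lowest detected intensity was 79.2 to 85.7, and the brightest probe reached 10667 to 13278. Arrays 1 and 5 were dimmer, with median intensities of 77.9 and 75.1 over all probes, against 79.9 to 81.2 on the other 3. Undetected probes had median intensities of 71.3 to 77.1, so a probe near 80 could not be told from background. On arrays, their number and the background limit the precision. How bright a probe is depends on its own sequence as well as on its transcript, so the intensities below rank probes and do not order the transcripts of different genes.

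Probes with a single gene name covered 18352 genes. The other 21747 probes had no single gene name and were left out of the gene counts. Of these 3916 (18.0%) were detected on all 5 arrays, against 10156 of 26359 named probes (38.5%). Each gene was represented by its brightest named probe, the lead probe. The lead probe was detected on all 5 arrays for 7928 genes, which is 43.2% of named genes and the share against which each list below is read. A further 4012 genes (21.9%) fell between, and 6412 genes (34.9%) had no probe detected on any array. At this p-value some background probes pass on an array by chance, so detection on 1 array alone may be noise. Of named probes, 2933 (11.1%) were detected on 1 array only. Of protein-coding genes 45.9% of 16621 were detected on all 5 arrays, against 76 of 519 long non-coding RNA genes (14.6%) and 101 of 431 transcribed pseudogenes (23.4%). Genes of small RNAs split by kind: 93 of 262 small nucleolar RNA genes (35.5%) but 13 of 435 microRNA genes (2.99%) were detected on all 5, and the microRNA probes are no reading of mature microRNAs. Across chromosomes the share ran from 32.6% of 780 genes on X to 50.5% of 751 genes on 16. Among 5598 genes with several probes, 1404 had every probe detected on all 5 arrays, 1215 had none detected on any, and 886 had a probe detected on all 5 beside another detected on none. For those 886 genes the call rests on the probe chosen.

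The brightest probes belonged to the protein synthesis machinery. EEF1A1, the elongation factor that delivers aminoacyl-tRNA to the ribosome, read 11139, 10603, 12358, 12819.6 and 10667 on arrays 1 to 5. Cytosolic ribosomal protein genes made up 18 of the 30 brightest genes and 54 of the 300 brightest. RPS6, a small-subunit protein phosphorylated downstream of mTOR, read 9854, 10758, 12855, 12115 and 10017. RPS12, another small-subunit protein, read 9469, 10559.5, 12708, 11912 and 10200.0. The other ribosomal proteins among the 30 were RPL41, RPL35A, RPL9, RPL18, RPL11, RPS25, RPS29, RPL30, RPL17, RPLP1, RPL32, RPS13, RPL19, RPL37A, RPL6 and RPL39, with medians from 8870.5 to 10293. Of the remaining genes TPT1 (translationally controlled tumour protein) had a median of 10089.9, the cytoplasmic actin ACTG1 10271, the actin monomer binder TMSB4X 9387, and OAZ1, the antizyme that limits polyamine synthesis, 9758. The mitochondrial ribosomal protein MRPS21 had a median of 9276. Chromatin contributed the histones H4C3 at 9637 and H3-3A at 9343. RPL13AP5, RPSAP9, ATP5F1EP2 and PPIAL4A are named as pseudogenes or copies of abundant genes, and their probes, at medians of 9502, 9198, 9623 and 9269.7, cannot be told apart from the parent transcripts. Median intensities of the 30 genes were 106 to 136 times the lowest detected intensity, and whether such probes were saturated was not tested. Signal above an array's median undetected intensity was also summed over the lead probes of all named genes, detected or not. Of this sum, the 30 brightest lead probes of each array held 7.48 to 8.62%. The 300 brightest of each array held 40.9 to 43.0%, and the cytosolic ribosomal proteins 11.3 to 12.4%. Of all 7928 detected genes, 853 had a median intensity of 1000 or more, 3097 lay from 200 to under 1000, 2994 from 100 to under 200, and 984 lay under 100.

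RPS12 shows the start typical of this class of genes: transcripts of ribosomal proteins and translation factors are known to begin with C followed by a run of pyrimidines, the TOP motif through which mTOR controls their translation. The 100 bases around its annotated start in RefSeq (GRCh38.p14, chr6:132814519-132814618, plus strand) are printed with the pyrimidine run that opens the transcript in capitals.
RPS12: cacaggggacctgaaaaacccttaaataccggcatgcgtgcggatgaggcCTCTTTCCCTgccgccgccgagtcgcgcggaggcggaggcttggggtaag
A start of C followed by at least 4 pyrimidines, read on the transcript strand only, was found in 40 of 62 cytosolic ribosomal protein promoters (64.5%), against 4.63% of the 13895 promoters matched to named genes. The match describes the annotated start and is no measurement of the start used in these cells.

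Genes that define B cells were mostly detected. Of 19 B-cell identity genes with a named probe, 16 were detected on all 5 arrays (84.2%) and 3 on none. CD79A and CD79B are the signalling chains of the B-cell receptor. CD79B read 3734, 4101, 4361, 4519.8 and 3352, and CD79A read 2346, 2234, 2554, 2533 and 2248. MS4A1, which encodes CD20, read 629, 755, 699, 808 and 672, by 2 of 3 probes. These intensities were all well clear of the limit on every array. POU2AF1, the B-cell coactivator of octamer-binding factors, read 986, 1092, 1042, 1046 and 915, while the octamer factor POU2F2 read 109, 110.2, 109, 116 and 113, close to the limit. EBF1, a founder of B-cell identity, read 211, 261, 238, 245 and 236, and BACH2, which restrains plasma cell differentiation, 132, 136, 136, 134 and 136. BCL11A, a lymphoid transcription factor, ranged from 547 to 690.5, and the Ikaros-family factor IKZF3 from 114 to 141. Of the surface proteins, CD27 ranged from 711 to 860.4, the ectoenzyme CD38 from 304 to 379.7, the tetraspanin CD37 from 340.4 to 370.4, the inhibitory lectin CD22 from 144 to 159 and the complement receptor CR2 from 94.7 to 111. The kinase BLK ranged from 355 to 427 and VPREB3, a pre-B-cell receptor partner, from 340.3 to 427. The 3 genes without detection were CD72, an inhibitory coreceptor at 76.7, 77.9, 75.6, 84.9 and 75.3, CD24 at 72.0 to 81.6 and FCER2 (CD23), the low-affinity IgE receptor, at 64.5 to 78.4. PAX5, TCF3, CIITA, FCRLA and FCRL1 were not analysed here.

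Markers of other lineages were mostly undetected. On all 5 arrays 2 of 21 T and NK cell markers were detected, with 2 of 16 myeloid, 2 of 15 erythroid and platelet, 1 of 22 fibroblast and epithelial, 4 of 21 neuron, liver and muscle, and 2 of 25 germline and cancer-testis genes. In the same order, 13, 9, 9, 13, 12 and 18 genes were detected on no array. The remaining 6, 5, 4, 8, 5 and 5 genes were detected on some arrays. Averaged over a list's lead probes, intensity on an array was 73.9 to 102.1 for these 6 lists. The defining genes CD3D, CD4, NKG7, LYZ, TYROBP, PF4, COL3A1, CDH1, SYP and NANOG were not detected on any array. The exceptions, detected on all 5 arrays, began with CD247, the T-cell receptor zeta chain, at 169.8 to 216, and LCK at 96.8 to 115. They also held CD14 at 82.8 to 94.2, CD68 at 97.9 to 121, PPBP at 82.2 to 93.1 and GP1BA at 118 to 186. EPCAM, an epithelial adhesion molecule, read 554, 623, 412, 586 and 456, with both of its probes detected on all 5 arrays. MBP at 173 to 205, ALB at 141 to 165, APOA1 at 85.5 to 99.5, MYL2 at 169 to 193, DAZL at 115 to 146 and LIN28B at 108 to 123 completed them. Apart from EPCAM these exceptions reached at most 216, and APOA1, CD14 and PPBP lay close to the limit. The part of other cells in these values was not tested.

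**Figure D1:**
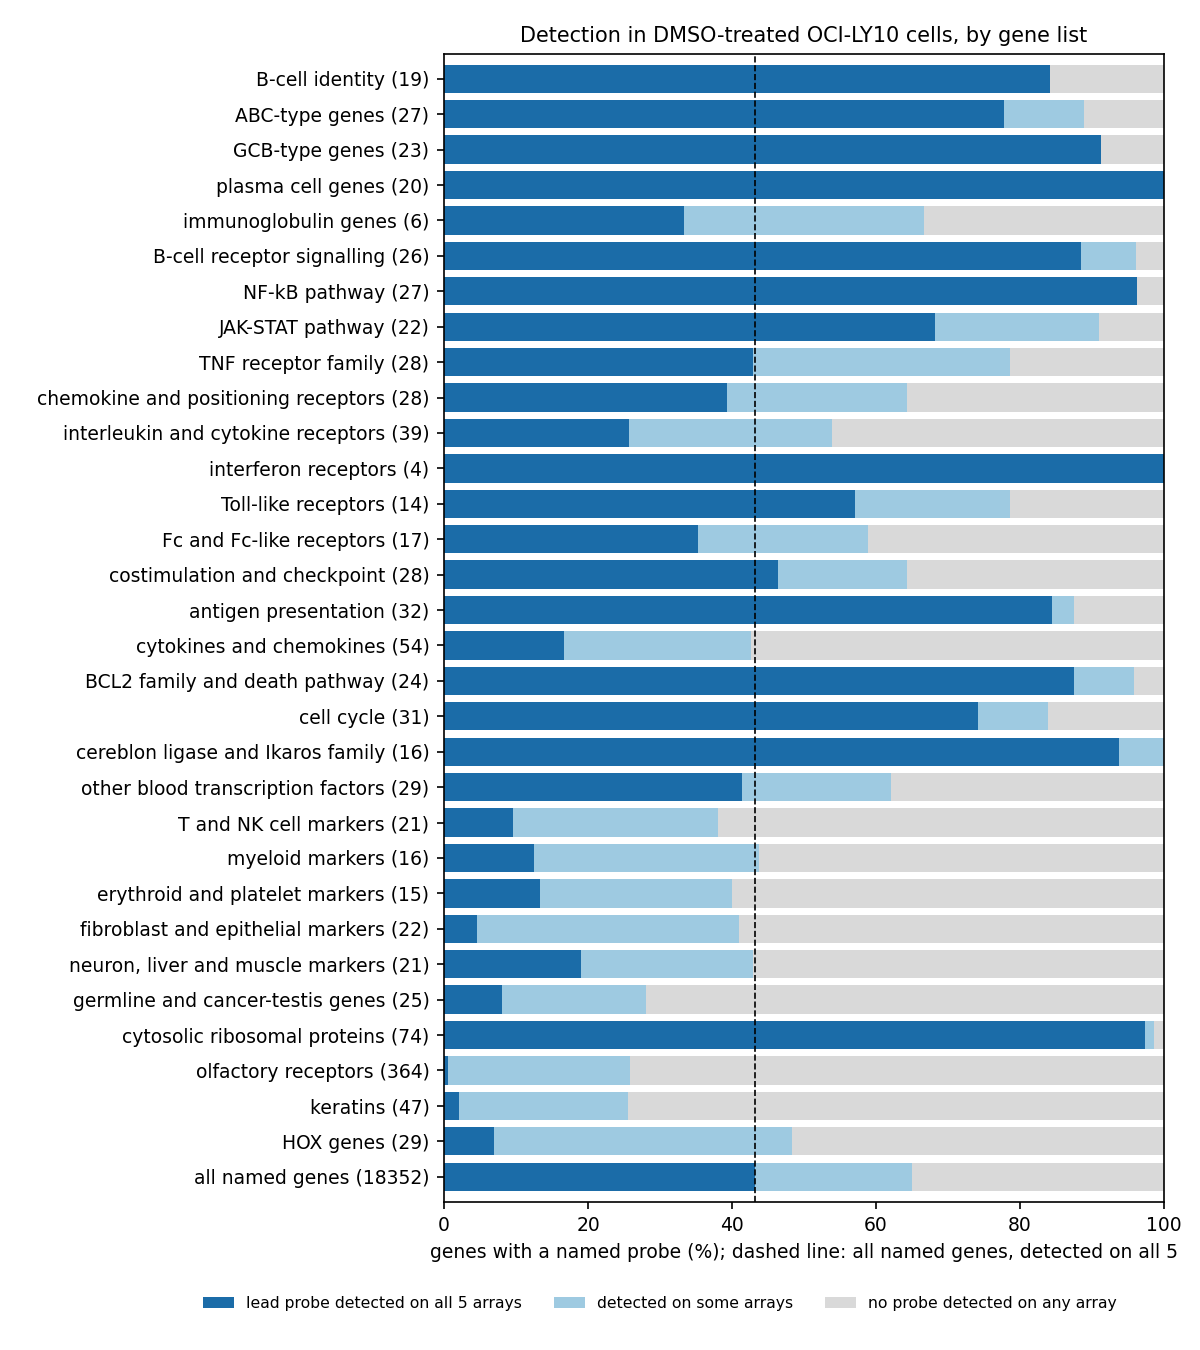
Share of genes with a named probe (x axis, %) whose lead probe was detected on all 5 DMSO arrays (dark), on some arrays (light) or on none (grey), for 27 gene lists and 4 families, with the number of genes in brackets. The dashed line marks 43.2% for all named genes, and the B-cell identity, ABC-type, GCB-type, plasma cell, signalling and cereblon lists lie to its right while the other-lineage markers lie to its left.

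Both lymphoma programs were widely detected. Of 27 ABC-type genes with a named probe, 21 were detected on all 5 arrays (77.8%), 3 on some and 3 on none. Of 23 GCB-type genes, 21 were detected on all 5 (91.3%) and 2 on none. The difference between these shares was not tested, and it comes from few genes. Where every named probe of a gene had to be detected, the counts fell to 14 ABC-type and 16 GCB-type genes.

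IRF4, which drives the ABC and plasma cell programs, read 508, 564, 631, 565 and 548 on arrays 1 to 5. Its partner SPIB, an Ets-family factor that binds composite elements with IRF4, read 606, 589, 557, 578 and 682. The 2 genes were thus detected on every array, several times above the limit. BATF, which pairs with IRF4 at AP-1 composite sites, read 152, 163, 172, 164 and 122, and array 5 stood below the other 4. STAT3, activated in this lymphoma type by interleukin signals, ranged from 167 to 194 with all 3 probes detected. FOXP1 ranged from 121 to 177, by 2 of 4 probes. PRDM1, the plasma cell repressor that is often inactivated in the ABC type, read 130.4, 146, 137, 139.8 and 127 by 1 of its 4 probes, so its detection rests on the probe chosen. BCL2, the survival protein, read 2112, 2417, 2616, 2602 and 2646. The kinases PIM1 and PIM2, products of STAT3 and NF-kB target genes, ranged from 390.0 to 437 and from 517 to 636. BCL2A1, an NF-kB-controlled survival protein, ranged from 231 to 307. TNFRSF13B (TACI), a receptor for BAFF and APRIL, ranged from 438 to 516, CD44 from 547 to 632, the reductase CYB5R2 from 399 to 519, CCDC50 from 871 to 1039, CREB3L2 from 354 to 423 and the phosphatase PTPN1 from 337 to 445. The rest of the detected members, FUT8, RAB29, BLNK, CCR7 and IL16, had medians from 101 to 219. The cyclin CCND2, the ectonucleotidase ENTPD1 and SH3BP5, all classifier genes of the type, were detected on 1 array each, with maxima of 88.9, 83.3 and 88.9. LIMD1, IL10 and IL6 were not detected. IL10, a cytokine that ABC-type lines are known to secrete, read 79.9, 81.0, 74.1, 82.2 and 71.6, and IL6 read 75.5, 79.8, 82.9, 73.9 and 69.3. CFLAR was not analysed here.

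The annotated promoters of IRF4 and SPIB share a TATAAA hexamer, searched on the transcript strand with its first base from -40 to -20 of the start. It was present in 3.62% of the 13895 promoters, 1.69% of those of genes detected on all 5 arrays and 6.13% of those of genes detected on none. The 150 bases from -100 to 50 around each start (GRCh38.p14, plus strand, with no position 0) are shown with the hexamer in capitals. SPIB spans chr19:50418838-50418987 with the hexamer at -29, and IRF4 spans chr6:391652-391801 with it at -32.
SPIB: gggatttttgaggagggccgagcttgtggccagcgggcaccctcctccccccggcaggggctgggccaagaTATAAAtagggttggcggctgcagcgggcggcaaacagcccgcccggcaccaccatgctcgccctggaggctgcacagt
IRF4: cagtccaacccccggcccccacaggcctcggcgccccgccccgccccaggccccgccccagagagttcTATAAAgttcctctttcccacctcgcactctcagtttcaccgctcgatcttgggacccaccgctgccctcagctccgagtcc

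Genes of the germinal centre were as readily seen. BCL6, its master repressor, read 1486, 1557, 1682, 1516 and 1546. RGS13, a regulator of chemokine receptor signalling in germinal centres, read 1661, 1802, 2055, 2064 and 1659 by 1 of 2 probes, and ELL3, an elongation factor of germinal centre B cells, read 1851, 2274, 2238, 2309.8 and 1734. The values of these 3 genes were 1486 or more on every array. SERPINA9 (centerin), a GCB classifier gene, read 551, 594, 604, 595 and 508. MME, which encodes CD10, read 184, 225, 225, 194 and 205 by 1 of 4 probes, the other 3 not being detected on all 5 arrays. LMO2 ranged from 240.2 to 258, MYBL1 from 187 to 254, ITPKB from 232 to 275, ASB13 from 219 to 271, NEK6 from 209 to 264, SSBP2 from 359.7 to 434, STAP1 from 462 to 581 and BCL7A from 154 to 169. The confinement pathway of germinal centre B cells was present in its signal transducer GNA13 at 508 to 622 and receptor P2RY8 at 514 to 621, while its other receptor S1PR2 was not detected at 72.7, 75.6, 73.7, 83.0 and 75.4. KLHL6 ranged from 588 to 666, the progenitor factor MYB from 275 to 388, the chromatin remodeller SMARCA4 from 715 to 946, the methyltransferase EZH2 from 315 to 379 with all 3 probes detected, RASSF6 from 132 to 159 and GCSAM (HGAL) from 102 to 135. MAML3, a Notch coactivator, was not detected at 67.7 to 74.2. MEF2B was not analysed here.

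SERPINA9 carries a pair of octamers, the 8-base element bound by POU2F factors, in its annotated promoter (GRCh38.p14, chr14:94476148-94476447, minus strand, -250 to 50). The octamer was searched as ATGCAAAT on both strands and is shown in capitals.
SERPINA9: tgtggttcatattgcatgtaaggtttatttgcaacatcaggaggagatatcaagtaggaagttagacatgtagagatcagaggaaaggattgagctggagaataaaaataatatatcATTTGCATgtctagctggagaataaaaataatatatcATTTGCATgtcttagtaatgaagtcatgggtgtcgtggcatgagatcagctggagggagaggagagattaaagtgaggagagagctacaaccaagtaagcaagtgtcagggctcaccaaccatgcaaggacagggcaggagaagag
It was found in 1.68% of the 13895 promoters, in 1.34% of those of genes detected on all 5 arrays and in 2.25% of those of genes detected on none. A match describes the letters in this window and not a site in use.

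**Figure D2:**
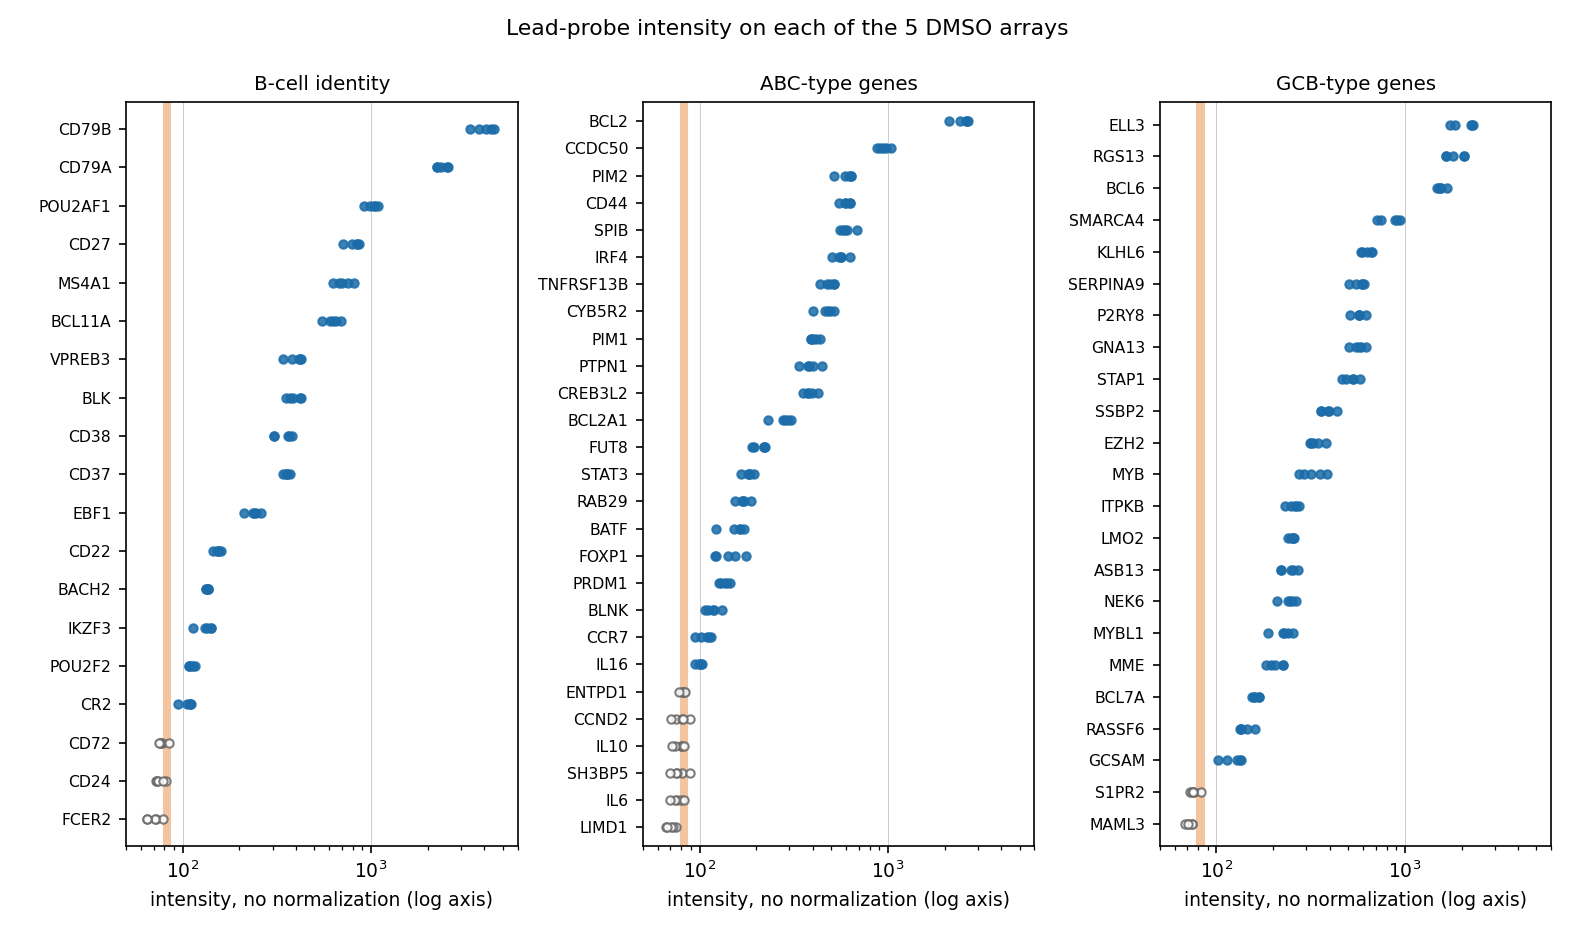
Lead-probe intensity (x axis, arbitrary units, log scale) of the B-cell identity, ABC-type and GCB-type genes, 1 point per DMSO array. Filled points mark genes detected on all 5 arrays, open points the others, and the band spans the lowest detected intensity of the arrays, 79.2 to 85.7. CD79B, BCL2, BCL6, RGS13 and ELL3 lie far right of the band, and the open points of CD72, IL10, IL6 and S1PR2 overlap it or lie left of it.

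All 20 plasma cell genes were detected on all 5 arrays, at very different distances from the limit. At a detection p-value below 0.01 the count was 18, and it was 16 where every named probe had to be detected. XBP1, the factor that builds the secretory apparatus, read 1962, 2049.7, 2099, 1968 and 1884. JCHAIN, which joins polymeric IgM and IgA, read 2482, 2664, 2958, 2787 and 2170.4, and TNFRSF17 (BCMA), the APRIL receptor of plasma cells, read 2356, 2425, 2885, 2409 and 1986. SEC11C, a subunit of the signal peptidase, read 7731, 7954, 10155, 8189.8 and 7746. The values of these 4 genes were 1883.5 or more on every array. Other secretory genes were the chaperone HSP90B1 at 1245 to 1597, the translocon-associated SSR4 at 945 to 1256, the prolyl isomerase FKBP11 at 786 to 925, MZB1, a chaperone of IgM assembly, at 744 to 890.1, and the disulphide isomerases TXNDC5 at 670.3 to 790.0, PDIA6 at 332 to 456 and PDIA4 at 127 to 141. The members nearest to the limit were 6 genes picked by their values: SDC1 (CD138) read 94.4, 101, 97.2, 88.5 and 91.0 by 1 of 3 probes, SLAMF7 ranged from 86.1 to 108, the elongation factor ELL2 from 85.3 to 124, ITM2C from 99.4 to 109.7, DERL3 from 115 to 123 and FNDC3B from 117 to 134. PRDM1, IRF4 and CREB3L2 are also on this list, with the values above.

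Of 21 immunoglobulin and rearrangement genes, 6 had a named probe, and none of those was a heavy or kappa chain. IGLL1, the surrogate light chain, read 2838, 2819, 3005, 3251 and 3037 by 1 of 3 probes. Its sequence closely resembles the lambda constant genes, so the signal could not be assigned between them. VPREB1, the other surrogate chain, and the terminal transferase DNTT were not detected, at 69.9 to 75.8 and 71.8 to 80.1. The recombinase genes RAG1 and RAG2 were detected on 1 array each, with maxima of 87.1 and 81.2.

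The B-cell receptor cascade was detected nearly in full, with 23 of 26 genes on all 5 arrays (88.5%). Its kinases are the Src-family LYN, which read 1035, 1133, 1095, 1064 and 934, SYK, which read 826, 872, 892, 824 and 752, and BTK, which read 343, 382, 375, 376 and 325. Downstream of them PLCG2, the phospholipase that BTK activates, read 1753, 1809, 1958, 1773 and 1679, and the protein kinase C isoform PRKCB, which relays its signal towards NF-kB, ranged from 277 to 305. The inhibitory kinase CSK ranged from 1892 to 2302, and the tetraspanin CD81 from 3018 to 4257. The adaptor GRB2 ranged from 409.6 to 576 and RASGRP3, an exchange factor for Ras, from 631 to 727. The PI3-kinase subunits PIK3CG and PIK3CD ranged from 281 to 303 and from 109 to 124. Several members were near the limit, among them the adaptor BLNK at 107 to 131, DOK3 at 86.2 to 97.5 and the phosphatase PTPN6 at 105 to 129 by 1 of 3 probes. SOS1 was detected on 2 arrays and NFATC2 on 1, and CD5 on none at 70.7 to 76.8.

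NF-kB pathway genes were detected on all 5 arrays for 26 of 27 (96.3%). Among the subunits NFKB1 read 953, 1215, 1132, 1206 and 1107, RELB ranged from 229 to 270.0, REL from 168 to 200.4, NFKB2 from 118 to 135 and RELA from 105 to 127. The inhibitors that NF-kB itself induces were also seen, with NFKBIA at 540.3, 564, 597, 566 and 529 and the ubiquitin-editing enzyme TNFAIP3 (A20), whose gene is often inactivated in this lymphoma type, at 128, 129.9, 129.8, 139.9 and 119. The atypical inhibitor NFKBIZ ranged from 348 to 402, BCL3 from 215 to 236 and TNIP1 from 304 to 364. Of the Toll-like receptor pathway, the adaptor MYD88 ranged from 124 to 157 and the kinase IRAK1 from 607 to 764. In the receptor arm BCL10 ranged from 90.2 to 103, MAP3K7 (TAK1) from 336 to 391 and IKBKB from 138 to 196. The deubiquitinase CYLD was the 1 member not detected, at 74.5, 74.6, 69.6, 75.2 and 73.6. MALT1, IKBKG and CHUK were not analysed here. TNFAIP3 and B2M, the light chain of MHC class I, carry the same kappaB decamer, searched on both strands and given in capitals as it reads on the transcript strand. It was present in 27 of 13895 promoters (0.194%), namely 0.274% of those of genes detected on all 5 arrays and 0.158% of those of genes detected on none. TNFAIP3 spans chr6:137867009-137867308 and B2M chr15:44711267-44711566 (GRCh38.p14, plus strand, -250 to 50).
TNFAIP3: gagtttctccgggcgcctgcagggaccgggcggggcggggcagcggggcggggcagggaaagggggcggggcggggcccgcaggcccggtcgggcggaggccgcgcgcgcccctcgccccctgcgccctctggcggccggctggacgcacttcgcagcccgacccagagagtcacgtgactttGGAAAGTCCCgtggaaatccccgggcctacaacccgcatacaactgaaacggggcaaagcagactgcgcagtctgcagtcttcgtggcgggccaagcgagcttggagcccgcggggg
B2M: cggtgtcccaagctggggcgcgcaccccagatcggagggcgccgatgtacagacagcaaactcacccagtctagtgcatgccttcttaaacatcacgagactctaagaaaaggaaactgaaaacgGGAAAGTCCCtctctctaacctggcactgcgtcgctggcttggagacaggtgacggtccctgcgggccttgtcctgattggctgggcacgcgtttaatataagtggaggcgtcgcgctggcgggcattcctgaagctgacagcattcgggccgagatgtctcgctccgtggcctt

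JAK-STAT genes were detected on all 5 arrays for 15 of 22 (68.2%). TYK2 ranged from 490.2 to 616, JAK1 from 190.5 to 205 and JAK2 from 97.8 to 115, whereas JAK3, the kinase of the common gamma chain, was not detected, with a median of 72.8. STAT6 ranged from 218 to 263, and STAT4, STAT5A and STAT5B lay between 86.8 and 110.0. Of the feedback inhibitors SOCS1 ranged from 105 to 130.3 and SOCS4 from 324 to 349.5. SOCS3 was detected on 4 arrays with a maximum of 90.2, and CISH on none. STAT2 was not analysed here.

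Receptor families differed in how much of each was detected. The chemokine and positioning receptors, a list that also holds integrins, were detected for 11 of 28 (39.3%). This list and the TNF receptor family, at 12 of 28 (42.9%), lay near the 43.2% of all named genes. The interleukin and cytokine receptors lay below it at 10 of 39 (25.6%) and the Fc and Fc-like receptors at 6 of 17 (35.3%), and Toll-like receptors and their partners above it at 8 of 14 (57.1%). No test was made of these shares. With every named probe of a gene required on all 5 arrays, the count fell to 7 for the chemokine and positioning receptors and to 6 for the interleukin and cytokine receptors.

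CXCR5, which brings B cells to the follicle, read 2363, 2742, 2622, 2495 and 2237 with all 3 probes detected. CXCR4, the receptor of the germinal centre dark zone, read 365, 382, 389, 388 and 342. Both were clear of the limit on every array. CCR7, which directs cells to T-cell zones, ranged from 94.3 to 115, and CXCR3 from 82.0 to 93.1. GPR183 (EBI2), which guides B cells to the follicle edge, ranged from 136 to 154. S1PR1, the exit receptor, ranged from 85.1 to 99.5, and S1PR2, S1PR3 and S1PR4 were not detected. CCR1, CCR6, CXCR2, CXCR6, CX3CR1, ACKR1 and ACKR4 were not detected either. Integrins, counted in the same list, were seen as ITGB1 at 602 to 709, ITGB7 at 290.0 to 334, ITGB2 at 134 to 159 and ITGA4 at 89.8 to 118.

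Of the BAFF and APRIL receptors TNFRSF17 and TNFRSF13B are described above, and TNFRSF13C (BAFF receptor) read 86.8, 98.6, 85.4, 87.5 and 85.7, at the limit. CD40, the receptor for T-cell help, read 199, 194, 208, 190.3 and 181. The TRAIL death receptors TNFRSF10A and TNFRSF10B ranged from 162 to 199 and from 166 to 194, and FAS was detected on 2 arrays with a maximum of 88.1. TNFRSF1B ranged from 126 to 146 and TNFRSF1A from 90.5 to 101. TNFRSF8 (CD30), a marker of other lymphomas, and the lymphotoxin receptor LTBR were not detected, at 65.3 to 75.1 and 69.6 to 77.8.

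IL4R read 334, 348, 352, 329.5 and 280.2, and the interleukin 10 receptor chains IL10RA and IL10RB ranged from 235 to 283 and from 238 to 274. IL21R, the receptor for a T follicular helper cytokine, ranged from 117 to 154 by 1 of 3 probes, and IL17RB from 179 to 231. The common gamma chain IL2RG was detected on 1 array, with a maximum of 80.9, and IL2RA on 2. The interleukin 6 receptor IL6R was not detected, at 67.0 to 81.0, while its signalling partner IL6ST ranged from 92.5 to 104. IL7R, IL1R1, IL18R1, IL13RA1, OSMR, CSF1R, CSF2RA, CSF2RB and CSF3R were not detected. All 4 interferon receptor genes with a named probe were detected on all 5 arrays, namely IFNAR1 at 96.4 to 114, IFNAR2 at 152 to 170.0, the interferon lambda receptor IFNLR1 at 262 to 320.1 and its partner IL10RB. IFNGR1 and IFNGR2 were not analysed here.

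TLR9 and TLR10, which are well known in B cells, were clear of the limit on every array. TLR9, the endosomal sensor of CpG DNA, read 196, 192, 196, 191 and 161, and TLR10 read 417, 445, 425, 446 and 402. TLR1 and TLR6 were at the limit with maxima of 94.9 and 105. TLR3, TLR5 and TLR7 were not detected, and TLR2 and TLR8 on 1 array each. LY86, which partners the TLR-like protein CD180, read 638, 717, 723, 719 and 536, with array 5 below the other 4, whereas CD180 itself was detected on 1 array. UNC93B1, which carries nucleic acid-sensing receptors to endosomes, ranged from 142 to 175. TLR9 also carries an octamer, on the strand shown, in its annotated promoter (GRCh38.p14, chr3:52225596-52225895, minus strand, -250 to 50), printed with the octamer in capitals.
TLR9: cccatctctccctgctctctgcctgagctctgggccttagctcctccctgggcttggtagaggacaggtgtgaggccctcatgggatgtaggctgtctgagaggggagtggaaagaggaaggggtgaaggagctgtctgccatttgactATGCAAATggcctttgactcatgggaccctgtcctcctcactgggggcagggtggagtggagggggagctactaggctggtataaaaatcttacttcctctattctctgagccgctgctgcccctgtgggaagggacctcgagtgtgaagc
Of Fc receptors the inhibitory FCGR2B ranged from 158 to 191, though its sequence is close to that of FCGR2C and parts of FCGR2A. FCRLB, FCRL3, FCRL5, FCGRT and FCGR3A were the other 5 detected. FCGR1A, FCER1G, FCAR, PIGR, FCAMR and FCRL6 were not detected.

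**Figure D3:**
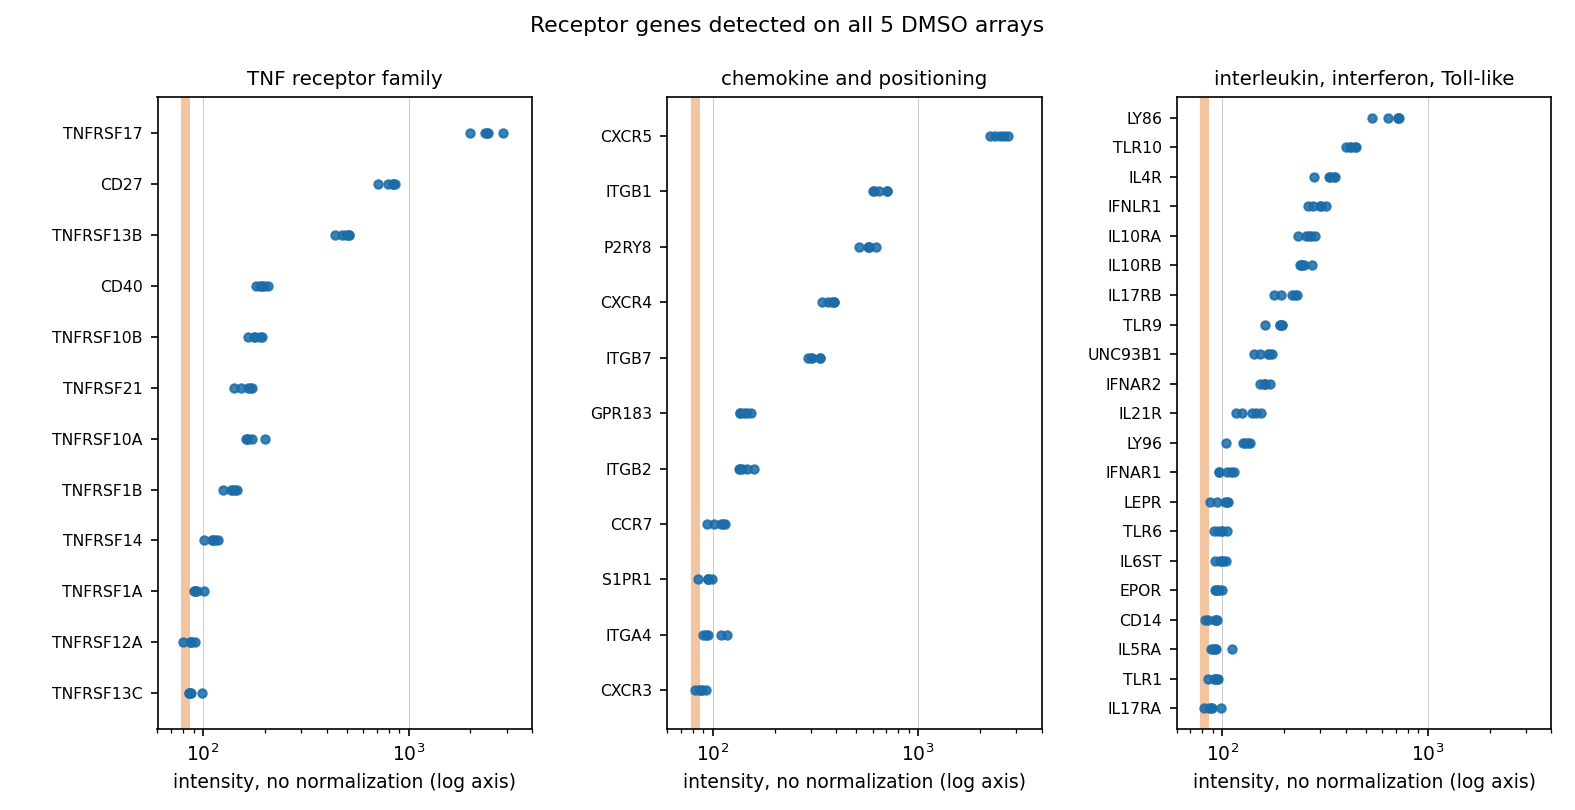
Lead-probe intensity (x axis, arbitrary units, log scale) of receptor and receptor-partner genes detected on all 5 DMSO arrays, 1 point per array, in 3 panels by receptor class. The band spans the lowest detected intensities, 79.2 to 85.7. TNFRSF17, CXCR5 and LY86 lie far to its right, and TNFRSF13C, CXCR3 and IL17RA overlap it.

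Antigen presentation genes were detected on all 5 arrays for 27 of 32 (84.4%). B2M read 5306, 6888, 6208, 7199 and 4880.5, HLA-B ranged from 904 to 1030.3, HLA-E from 224 to 271 and HLA-C from 116 to 145. The class II chains HLA-DRA read 4916, 5259.5, 6214, 5832 and 4476 and HLA-DPA1 ranged from 1731 to 1919, and the invariant chain CD74 from 2526 to 2738. The peptide exchange factors HLA-DMA and HLA-DMB ranged from 1003 to 1256 and from 1134 to 1442, and the class II promoter factor RFX5 from 839.9 to 1138. HLA-DRB1 was not detected by its 1 probe, at 74.4 to 81.3, and HLA-DPB1 lay at 89.9 to 95.5. Whether these probes match the alleles of this line was not tested, and HLA genes resemble each other closely enough to share signal. The peptide transporter TAP1 ranged from 346 to 416 and TAP2 was detected on 3 arrays with a maximum of 96.9. The immunoproteasome subunits PSMB8, PSMB9 and PSMB10 ranged from 429 to 478, from 165 to 235 and from 1218 to 1593. NLRC5, the class I transactivator, RFXAP and CD1D were not detected.

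Costimulation and checkpoint genes were detected on all 5 arrays for 13 of 28 (46.4%). CD86 read 372, 404, 409, 409.8 and 336, and CD80, the other CD28 ligand, ranged from 86.5 to 96.7, at the limit. CD48, a ligand of the natural killer cell receptor CD244, ranged from 558 to 680.2, CD58 from 203 to 271, the phagocytosis signal CD47 from 168 to 209 and the TNF-family ligand CD70 from 152 to 185. The PD-1 ligands CD274 and PDCD1LG2 were not detected, at 66.6 to 79.9 and 62.0 to 79.1. PVRIG, known as a receptor on T and NK cells, read 713, 757, 771, 746 and 669.8. TIGIT, known from the same cells, lay at the limit at 84.6 to 94.0.

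Cytokine and chemokine genes were mostly undetected, with 9 of 54 (16.7%) detected on all 5 arrays and 31 on none. The TNF-family members LTB, TNF and LTA were clear of the limit. LTB read 654, 729.9, 719.8, 709 and 578, TNF read 516, 554, 634, 512 and 441 and LTA read 472, 544, 476, 444 and 388. CCL3, a chemokine that B cells release after receptor engagement, read 200.1, 238, 223, 221 and 182, while CCL4, usually made with it, was not detected at 70.9, 71.0, 70.0, 77.0 and 66.4. CCL5 ranged from 93.1 to 112, IL16 from 94.6 to 103, TNFSF13B (BAFF) from 79.3 to 107, CCL22 from 81.8 to 89.6 and CXCL10 from 83.1 to 94.4, the last 3 reaching down to the limit. IL2, IL4, IL12A, IL12B, IL15, TNFSF13 (APRIL), TGFB1, CXCL12, CXCL13 and IFNB1 were not detected. None of 12 interferon alpha genes was detected on all 5 arrays, and 10 were detected on none.

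Genes of the BCL2 family and the death pathway, which both protect and kill cells, were detected on all 5 arrays for 21 of 24 (87.5%). Of the protective members beside BCL2, MCL1 read 2248, 2536, 2849.8, 2422 and 2110.5 and BCL2L1 (BCL-XL) read 1412, 1468, 1482, 1568 and 1493. The 21 also hold pro-apoptotic partners of these proteins. PMAIP1 (NOXA), which neutralises MCL1, read 3628, 4244, 4486, 3890.2 and 3379. BIK ranged from 468 to 729.5, BID from 251 to 317, BCL2L11 (BIM) from 180.5 to 211, BAX from 166 to 223, BAK1 from 108 to 144 and BBC3 (PUMA) from 94.2 to 114. BIRC5 (survivin) ranged from 410.4 to 478 and BIRC2 from 370.2 to 530.0. CASP10 was not detected at 73.8 to 82.8, and BCL2L2 on 1 array.

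Cell cycle genes were detected on all 5 arrays for 23 of 31 (74.2%). PCNA, the replication clamp, read 3124, 3755, 3711, 3416 and 3026, TOP2A read 1646, 1995, 2032, 1886 and 1544 and CDK1 read 939, 1188, 1239, 1173 and 712, the value of array 5 being the lowest of the 5. The replication helicase subunits MCM2, MCM5 and MCM6 ranged from 611 to 678, from 596 to 676 and from 903 to 1113. Of the D cyclins CCND3 read 539.5, 582, 685, 559 and 511, CCND2 was detected on 1 array and CCND1 on none at 68.0 to 74.2. Their kinases CDK4 and CDK6 ranged from 1189.7 to 1648 and from 359.7 to 434. MYC read 144, 165, 154, 159.8 and 138 with both probes detected, while MYCN was not detected. The inhibitors CDKN2A and CDKN1B ranged from 315 to 382 and from 241 to 364, and CDKN1A (p21), another inhibitor of cyclin-dependent kinases, was not detected at 75.8, 74.5, 76.9, 73.7 and 73.2. CCNE2 and CDKN1C were not detected, and MDM2, a ubiquitin ligase, was detected on 2 arrays.

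The genes of the ligase that CC-122 binds were detected in cells without the drug. Of 16 cereblon ligase and Ikaros-family genes, 15 were detected on all 5 arrays (93.8%). CRBN, the substrate receptor, read 265, 292, 281, 321 and 241 with both probes detected. DDB1, its adaptor, read 2204, 2454, 2517, 2301 and 1991, RBX1, the ring subunit, read 2746, 3186, 3254, 3039.9 and 2458, and the scaffolds CUL4A and CUL4B ranged from 338 to 452 and from 102 to 132. Among proteins that cereblon drugs are known to send for degradation, the Aiolos gene IKZF3 read 135, 141, 131, 141 and 114, ZFP91 ranged from 655 to 806, CSNK1A1 from 127 to 151 and GSPT1 from 1899 to 2552. IKZF2 lay at the limit at 83.9 to 109 by 1 of 4 probes, and IKZF4 was detected on 3 arrays. IKZF1 was not analysed here.

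A list of other blood transcription factors, which includes factors of B cells such as TCF4, had 12 of 29 detected on all 5 arrays (41.4%). This was near the share of all named genes. TCF4, an E protein shared by B cells and plasmacytoid dendritic cells, read 1632, 1592, 1707, 1768 and 1677, and the E-protein inhibitor ID2 read 1431, 1739.7, 1586, 1564 and 1384. LEF1, a mediator of Wnt signalling in lymphoid progenitors, read 438, 476, 474, 412 and 410.2 with both probes detected. RUNX3 ranged from 684 to 836, SPI1 (PU.1) from 170.4 to 178, CEBPB from 218 to 277 and TBX21 (T-bet) from 107 to 126. ID3 and ID1 ranged from 314 to 379 and from 249 to 316. Of the 29 genes 11 were detected on no array, among them GATA2, GATA3, TAL1, CEBPA, CEBPE, EOMES, BCL11B, KLF1, NFE2 and GFI1B. GATA1 was detected on 1 array, with a maximum of 85.6.

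Large gene families ranged from those nearly always detected to those of which few members were. On all 5 arrays 72 of 74 cytosolic ribosomal protein genes were detected, with 71 of 72 mitochondrial ribosomal proteins, 41 of 43 proteasome subunits, 70 of 77 respiratory chain subunits and 51 of 59 translation factors. The undetected members were forms known from particular tissues: the muscle ribosomal protein RPL3L, the thymic proteasome subunit PSMB11, COX4I2, COX6A2, COX7A1, COX7B2 and COX8C of the respiratory chain, and EEF1A2 and EIF4E1B of translation. PSMF1, a proteasome inhibitor, and the pseudogene EIF3IP1 were undetected too. Zinc finger genes named ZNF, at 157 of 373 (42.1%), and solute carriers, at 111 of 298 (37.2%), lay nearer to all named genes.

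At the low end 2 of 364 olfactory receptors (0.549%) were detected on all 5 arrays and none of 27 taste receptors, 25 of which were detected on no array. Keratins had 1 of 47, keratin-associated proteins 1 of 76 and defensins 1 of 39. OR2A42 at 87.0 to 114, OR9A4 at 94.7 to 101, KRTAP10-11 at 81.3 to 96.3 and DEFB123 at 80.3 to 95.9 lay at the limit, while KRT10 read 485, 534, 473, 509.6 and 433. Of HOX genes 2 of 29 were detected, HOXC4 at 226, 225, 234, 227 and 225 and HOXB7 at 80.0 to 97.9. Collagens had 2 of 43, COL8A2 and COL9A2, cytochrome P450 enzymes 5 of 46, with a further 20 of 46 detected on some arrays, and potassium channels 7 of 71. The potassium channel KCNK12 ranged from 272 to 353. Protocadherins and cadherins had 5 of 87, of which PCDH10, PCDHB2, PCDHB4 and PCDHGB6 reached at most 130.4. The fifth was CDH2 (N-cadherin), a calcium-dependent adhesion molecule of neural and mesenchymal cells, which read 4028, 4622, 4696, 4713 and 4300.3, a median of 54.5 times the lowest detected intensity.

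Detection also went with the sequence of the promoter. CpG islands are stretches rich in the CG dinucleotide that cover the starts of most widely expressed genes and of many developmental regulators, whereas many tissue-restricted genes lack them. RefSeq windows of 300 bases, from 250 before to 50 after the annotated start, were matched for 13895 named genes. In each, the observed CpG count was divided by the count expected from its C and G bases. The ratio had a median of 0.858 for 6561 genes detected on all 5 arrays, 0.688 for 2894 between and 0.496 for 4440 detected on none. A ratio above 0.6 was found in 86.3%, 56.5% and 44.0% of these windows, and in 66.6% of all. Among protein-coding genes alone the medians were 0.858 for 6502 detected and 0.505 for 4234 undetected genes. No test was made, since genes share chromosomes and families.

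**Figure D4:**
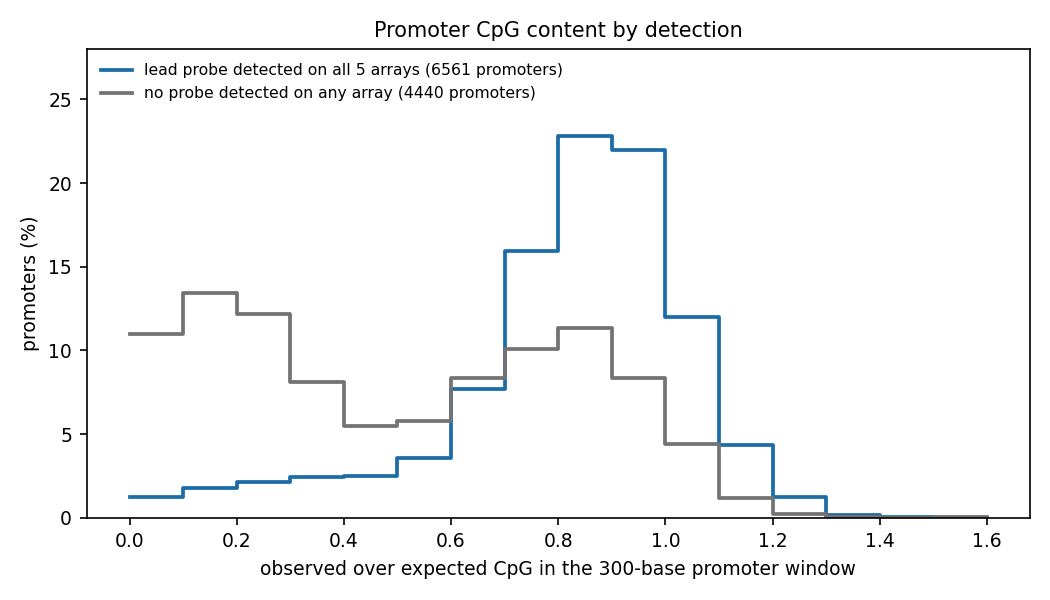
Distribution of the observed over expected CpG ratio (x axis, bins of 0.1) in 300-base promoter windows, as the percentage of each class (y axis), for genes detected on all 5 DMSO arrays and for genes with no probe detected. Detected genes form a single peak near their median of 0.858, and undetected genes are spread over the low ratios with a smaller peak at the same place.

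Several lists of detected genes had low ratios, B-cell identity among them. Of its 10 detected on all 5 arrays with a matched window, 2 had a ratio above 0.6, and their median was 0.299. None was above 0.6 among 8 detected cytokines and chemokines (median 0.19), 6 Fc and Fc-like receptors (median 0.288) and 4 Toll-like receptors and partners (median 0.257). Detected cell cycle genes had 19 of 20 above 0.6 with a median of 0.968, detected NF-kB pathway genes 20 of 24, and cytosolic ribosomal proteins 61 of 62. Detected ABC-type genes had 11 of 19 above it and detected GCB-type genes 10 of 19. Other short motifs, each searched on both strands, differed in how far their shares separated the classes. The GC box GGGCGG was present in 70.9% of windows of genes detected on all 5 arrays and in 44.8% of those detected on none. The Ets core CCGGAAGT was present in 10.4% and 1.64%. Both of these motifs hold a CG, so they cannot be told apart from the CpG ratio itself. The shares lay closer for the CCAAT box CCAAT, at 39.4% and 34.4%, and for the PU.1-type motif GAGGAAGT, at 2.77% and 2.25%. An Ets-IRF composite motif was present in 2.33% of windows of genes detected on all 5 arrays and in 2.68% of those detected on none.

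The windows of 3 genes show differing CpG content, with every CG in capitals. The window of the detected IRF4 (chr6:391502-391801, plus strand) holds 32 CpGs at a ratio of 0.841. The window of CD72 (chr9:35618364-35618663, minus strand), a B-cell gene without detection here, holds 6 at a ratio of 0.252. The window of the undetected IL10 (chr1:206772445-206772744, minus strand) holds 2 at a ratio of 0.17. All are RefSeq GRCh38.p14 sequence.
IRF4: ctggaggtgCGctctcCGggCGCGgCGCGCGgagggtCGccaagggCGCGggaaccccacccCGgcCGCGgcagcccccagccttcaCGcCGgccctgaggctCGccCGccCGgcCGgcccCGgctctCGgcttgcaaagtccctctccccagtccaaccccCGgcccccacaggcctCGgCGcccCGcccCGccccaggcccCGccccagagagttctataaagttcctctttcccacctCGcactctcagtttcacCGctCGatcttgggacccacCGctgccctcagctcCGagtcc
CD72: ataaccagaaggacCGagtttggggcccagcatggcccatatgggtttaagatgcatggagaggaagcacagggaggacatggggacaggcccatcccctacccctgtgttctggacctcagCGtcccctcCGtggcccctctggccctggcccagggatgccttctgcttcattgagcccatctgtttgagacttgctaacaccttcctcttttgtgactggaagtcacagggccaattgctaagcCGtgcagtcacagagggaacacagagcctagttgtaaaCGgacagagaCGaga
IL10: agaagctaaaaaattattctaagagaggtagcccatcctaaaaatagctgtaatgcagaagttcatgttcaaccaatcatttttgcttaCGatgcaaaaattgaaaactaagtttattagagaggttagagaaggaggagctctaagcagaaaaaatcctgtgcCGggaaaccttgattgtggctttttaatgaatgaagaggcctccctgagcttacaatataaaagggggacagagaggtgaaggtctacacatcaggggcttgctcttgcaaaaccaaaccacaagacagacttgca

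The 5 arrays resembled each other closely. After normalization, pairs of arrays correlated at 0.9913 to 0.9938 over the 7928 detected genes, given as a description since all share one cell line and one platform. The SD of a gene's log2 value over the 5 arrays had a median of 0.124 and ran from 0.012 to 0.552. It fell with brightness, with medians of 0.198 for genes under 100, 0.155 from 100 to under 200, 0.101 from 200 to under 1000 and 0.078 at 1000 or more. IRF4 averaged 8.98 ± 0.10 and BCL6 10.55 ± 0.10 on the log2 scale (SD, n = 5), CXCR5 11.25 ± 0.06, CRBN 7.78 ± 0.12 and CD79B 11.94 ± 0.07. These SDs lay below the median of all detected genes, but all 5 genes had median intensities above 200. Against the median of its own intensity band, the SD was higher for BCL6 and CRBN. It was level for IRF4 and lower for CXCR5 and CD79B.

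The 12 genes with the largest SDs depended on the processing: 6 of them were shared without array 1 or without array 4, 7 without array 5, 9 or 10 without array 3 or 2, 2 without background correction and 0 without normalization. All were dim, with medians from 87.5 to 128. MZT2A, a gamma-tubulin complex partner, read 128, 109.7, 97.9, 137 and 86.6, and the acetyltransferase KAT5 read 110.4, 92.0, 128, 133 and 98.2. RALGAPB, H3C13, GDF11, OXNAD1, SNX19, SNAI2, GABARAP, ADH5, ORMDL2 and ELL2 made up the rest, with SDs from 0.44 to 0.48. For such genes the noise near the limit and a difference between cultures cannot be told apart. Among 3950 detected genes with a median intensity of 200 or more, a threshold chosen after the data were seen, 6 had an SD above 0.3. RNF220, a ubiquitin ligase, read 177, 209, 213, 201 and 125, with array 5 below the others. The DNA helicase RECQL read 395, 418, 276, 459 and 391, with array 3 below the others. TOR3A, SYNE2, SFPQ and GANAB had SDs of 0.36, 0.32, 0.31 and 0.30.

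**Figure D5:**
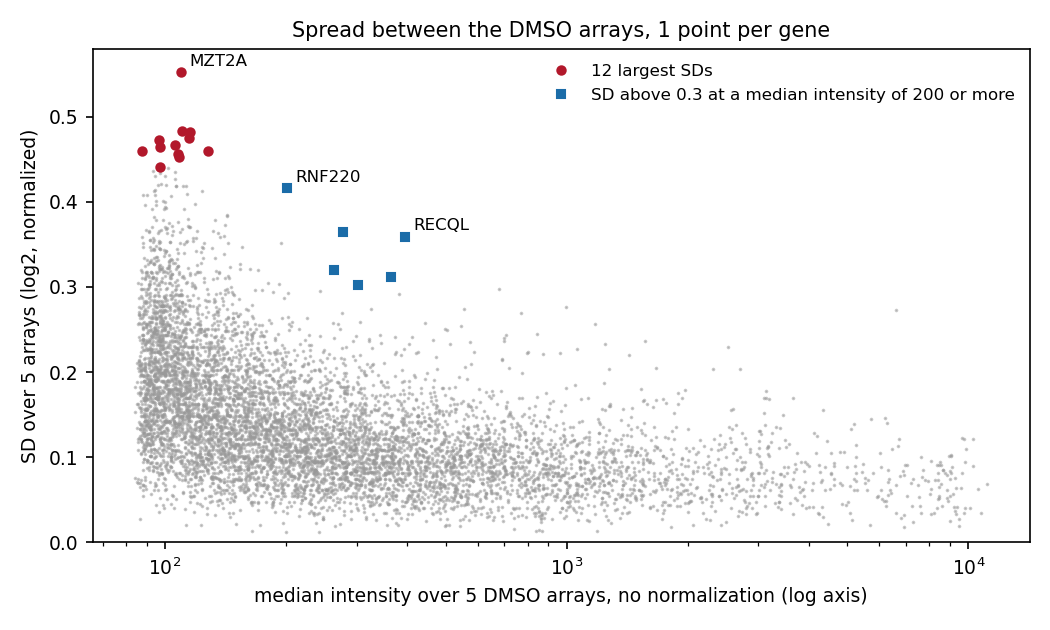
SD over the 5 DMSO arrays of the normalized log2 value (y axis) against median intensity (x axis, arbitrary units, log scale), 1 point per gene detected on all 5 arrays. Circles mark the 12 largest SDs, at medians of 87.5 to 128, and squares the 6 genes with an SD above 0.3 at a median of 200 or more, RNF220 and RECQL among them.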

How the data were processed

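RNA of OCI-LY10 cells was labelled with biotin by an Illumina TotalPrep kit after miRNeasy extraction, per the labels' protocols, and read on Illumina bead arrays. The authors deposited an intensity for each of 48107 probes and array, without normalization per the file name, and a detection p-value beside it. No source used here names the scanner software. The authors also deposited normalized log2 values for 34468 probes, whose scale was read from the match of each DMSO column to its own array (correlation of at least 0.99992, median difference 0.06). No source used here gives their normalization, and they served as an alternative.

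A probe with a missing value was left out. For the 5 DMSO arrays, background was estimated from the detection p-values and values were quantile normalized (function neqc, offset 16, limma 3.58.1, R 4.3.3), and intensities are printed as deposited. The platform annotation, with symbols brought up to date by gene identifier, named 26359 probes with 1 gene each. The lead probe of a gene had the highest mean log2 value. Detection needed a p-value below 0.05. No test was made, since a single group was used.

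The genes named are the 30 brightest, the 12 with the largest SD, every member with a value of the B-cell identity, ABC-type, GCB-type and plasma cell lists, and examples of the other lists and families. There were 27 lists and 18 families, written from textbook knowledge. The members and lists were chosen with earlier results of these data known. Some genes are not reported here. Promoter windows and annotation were RefSeq GRCh38.p14, credited as such, while the files name no genome build.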

Additional observations from a re-analysis of the deposited data

Results flagged for a closer look

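For 301 genes named here and detected on all 5 arrays, the highest or lowest array was compared with its nearest neighbour, as a share of the whole range of normalized log2 values. In 22 genes that gap was more than 0.71 of the range, Dixon's critical value for 5 samples. Chance flags about 1 in 20 groups, and over all 7928 detected genes 445 (5.61%) had such a gap. The 301 genes include those named for a large SD, and of these RNF220, RECQL, GANAB and SNAI2 were flagged. The share among the 301 is therefore not compared with chance.

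Array 5 stood apart in 10 of the 22 genes. It was low for LY86 (0.924), RNF220 (0.793), BATF (0.774), GANAB (0.764), PSMB10 (0.745) and TNFSF13B (0.714). It was high for RPS29 (0.784), CD22 (0.741), TNFRSF10A (0.736) and BCL2L11 (0.714). Array 4 was low for TNFRSF10B (0.837), MAP3K7 (0.834), SDC1 (0.797) and LEF1 (0.737) and high for SNAI2 (0.818) and STAP1 (0.74). Array 3 was high for IKZF2 (0.824) and TAP1 (0.741) and low for RECQL (0.803). Array 1 was high for DEFB123 (0.951) and low for RPS12 (0.82), and array 2 was high for ID2 (0.785). Over all detected genes the gap belonged to array 5 in 143 genes and to each other array in 58 to 85.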

How the results depend on the processing

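The number of genes detected on all 5 arrays was 7517 at a detection p-value below 0.01, 6385 where every named probe had to be detected, and 8394 on at least 4 of 5 arrays, against 7928. The number with no detection was 8251 at the stricter p-value and 8604 where 1 detecting array was allowed, against 6412. Leaving out each array in turn gave 7988 to 8039 detected and 6757 to 6902 undetected genes. The deposited normalized table lists all 26359 named probes, so restricting to it changed no gene count. Of 27 list counts, 1 moved by over 1.5 times at the stricter p-value, erythroid and platelet markers at 1. With every named probe required, 5 moved: immunoglobulin genes to 1, chemokine and positioning receptors to 7, interleukin and cytokine receptors to 6, T and NK cell markers to 1 and myeloid markers to 0. Of the 422 genes named, 26 changed class at the stricter p-value and 64 with every probe required. The median CpG ratio stayed between 0.855 and 0.864 for detected and between 0.496 and 0.527 for undetected genes under these settings.

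The 30 brightest genes shared 30 members with each of 6 other settings (other background correction, none, no normalization, the deposited table, all 10 arrays, no filter on dim probes) and 29 or 30 when an array was left out. The 12 most variable genes depended on the processing. They shared 5 with a fixed offset of 50, 2 without background correction, 0 without normalization, 0 without a filter on dim probes, and 6 to 10 when an array was left out, and the cause was not tested. The median SD was 0.082 without background correction, against 0.124, and 0.113 to 0.125 when an array was left out. Restricted to genes with a median intensity of 200 or more, chosen after seeing the data, it was 0.096. No paired analysis was possible because a single group was used. Near the background limit of 79.2 to 85.7, a call separates faint transcripts from noise poorly, and 984 detected genes had medians under 100.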

Other observations

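Some genes outside the lists were far above the detection limit in every array. They were chosen after their values were seen. CLEC2D (LLT1), the ligand of the natural killer cell receptor KLRB1 that germinal centre B cells are known to display, read 8469.9, 8438, 9664, 8911 and 7431 on arrays 1 to 5 with both probes detected. KLRB1 itself was not detected, at 67.2 to 81.8. UCHL1, a ubiquitin hydrolase known from neurons and from germinal centre B cells, read 3969.7, 4000.2, 4601, 4118 and 3968. TCL1A, a coactivator of the kinase AKT in B cells, read 1447, 1566, 1653, 1705 and 1183. HLA-DRB4, a further class II beta chain gene that only some people carry, read 1666, 1815, 1624, 1930.4 and 1411 with both probes detected, beside the undetected HLA-DRB1 probe at 74.4 to 81.3. The beta chain genes resemble each other, so the signal could not be assigned to a single one of them.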
